A study of Mus musculus with 6 samples.

Results

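The 10 genes described here encode gamma subunits of heterotrimeric G proteins: Gng11, Gngt1, Gngt2, Gng2, Gng4, Gng5, Gng7, Gng10, Gng12 and Gng13. They were taken by gene symbol from a deposited table of 23224 genes, and all 10 had a row in it. The family was chosen by the fall of Gng11 and Gngt1 CPM (reads of a gene as a share of its library, scaled to the same total in every library) in this same comparison, so the levels of these 2 genes are given as a description and without a test. The other 8 came in by family name, and the question put to them was whether any was higher where Gng11 and Gngt1 were nearly absent. The 6 sequenced libraries were from mouse AKP organoids that had been taken from in vivo tumours; 3 had the genotype Control and 3 the genotype SOX17KO. Both groups share the AKP background, which the labels do not spell out. SOX17, an endoderm transcription factor, was deleted with CRISPR-Cas9 in the SOX17KO group. No guide, age or sex is named in the labels, nor whether the 3 libraries of a genotype were grown separately or from 1 clone. The p-values therefore reflect only how these samples varied, which may be technical.

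A heterotrimeric G protein couples a seven-pass receptor to enzymes and channels inside the cell. The alpha subunit binds GTP, and the beta and gamma subunits form a dimer that does not come apart under native conditions and signals in its own right to phospholipase C beta, adenylyl cyclases, phosphoinositide 3-kinase and potassium channels. Every gamma subunit ends in a CaaX box, to which the cell attaches a prenyl lipid that holds the dimer at the membrane. The products of Gng11, Gngt1 and Gngt2 receive the shorter farnesyl group and the other gamma subunits the longer geranylgeranyl group. Gngt1 and Gngt2 are best known as the gamma subunits of rod and cone photoreceptors, whereas Gng5, Gng10, Gng11 and Gng12 are expressed in many tissues.

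Gng11 and Gngt1 were the closest pair by position and among the closest by sequence. They are next to each other on the same strand of chromosome 6 in RefSeq gene order. Their spliced coding sequences (GENCODE M21, GRCm38) were 73.3% identical at the nucleotide level, against 60.4% between Gng11 and Gngt2 and 61.7% between Gngt1 and Gngt2. Against the other 7 members, Gng11 was between 45.5% and 54.0% identical. The sequences below show the 2 genes that were nearly absent in SOX17KO, their nearest relative, and the 2 most abundant members. Capitals mark the last 4 codons before the stop codon, which encode the CaaX box.
Gng11: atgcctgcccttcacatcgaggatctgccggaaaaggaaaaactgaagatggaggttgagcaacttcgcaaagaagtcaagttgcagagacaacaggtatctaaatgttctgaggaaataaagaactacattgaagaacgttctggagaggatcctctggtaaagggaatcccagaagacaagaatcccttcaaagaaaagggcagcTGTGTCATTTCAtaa
Gngt1: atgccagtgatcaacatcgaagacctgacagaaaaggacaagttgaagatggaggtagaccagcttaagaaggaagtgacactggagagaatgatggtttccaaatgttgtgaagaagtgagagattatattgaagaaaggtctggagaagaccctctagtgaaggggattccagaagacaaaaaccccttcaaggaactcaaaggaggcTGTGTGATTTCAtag
Gngt2: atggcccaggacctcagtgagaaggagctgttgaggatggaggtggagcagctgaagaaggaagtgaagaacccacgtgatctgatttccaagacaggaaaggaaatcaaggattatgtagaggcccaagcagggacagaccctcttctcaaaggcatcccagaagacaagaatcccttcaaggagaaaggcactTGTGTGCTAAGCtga
Gng12: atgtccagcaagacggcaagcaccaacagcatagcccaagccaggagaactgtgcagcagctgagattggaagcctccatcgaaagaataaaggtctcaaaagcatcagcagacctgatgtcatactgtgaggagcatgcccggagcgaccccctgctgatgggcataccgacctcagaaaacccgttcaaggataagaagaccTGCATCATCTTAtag
Gng5: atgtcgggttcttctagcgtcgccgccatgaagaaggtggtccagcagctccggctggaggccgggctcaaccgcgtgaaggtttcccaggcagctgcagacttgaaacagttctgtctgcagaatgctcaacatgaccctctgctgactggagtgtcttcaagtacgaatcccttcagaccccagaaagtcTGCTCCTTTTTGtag
The capitals of Gng11 and Gngt1 end in the same codon, and those of Gng12 and Gng5 each end in another. None of the 10 transcripts shared a stretch of 50 bases with another gamma subunit gene.

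Libraries held between 18290912 and 27503254 estimated counts. Sox17 itself was at 34.4, 34.5 and 34.2 CPM in Control replicates 1, 2 and 3 and at 33.8, 41.9 and 45.1 CPM in SOX17KO, so its RNA level does not check the labels. SOX17KO replicate 1 stood apart: across genes its log2 CPM correlated at 0.960 and 0.963 with those of the other SOX17KO libraries, which correlated at 0.986 with each other. Over all 12137 genes that passed the low-count filter, edgeR's quasi-likelihood test called 834 at a Benjamini-Hochberg adjusted p below 0.05, which is 6.87% of them (3.67% higher and 3.2% lower in SOX17KO). An unadjusted p below 0.05 was reached by 20.3%. DESeq2 called 8.45% of the 17039 genes with any count (4.52% higher and 3.92% lower), including any that it left without an adjusted p. For limma-voom the share was 6.25% of 12137 (2.99% higher and 3.25% lower). Groups did not overlap for 28.2% of tested genes. The epithelial markers Epcam, Cdh1, Krt8, Krt18, Krt19, Vil1 and Cdx2 were between 123 and 6192 CPM in every library, while the gut transcription factor gene Cdx1 had 0 counts in Control and at most 0.878 CPM in SOX17KO. Of the 7 tested epithelial markers, Epcam was called higher in SOX17KO (log2 fold change 0.34, edgeR adjusted p = 0.0343). The other 6 were not called.

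Gng11 was at 16.8, 19.4 and 19.0 CPM in Control replicates 1, 2 and 3, whereas SOX17KO replicates 1, 2 and 3 had 0, 0 and 0.333 CPM. These levels rest on 463, 406 and 499 counts in Control and on 6 counts in SOX17KO, all of them in replicate 3. A count of 0 allows up to 3 counts, or 0.115 CPM in SOX17KO replicate 1 and 0.132 CPM in replicate 2. The ratio of the groups was 204, with a 95% interval of 93.6 to 558 that covers counting error only (exact binomial, from reads without molecular identifiers). All 3 Control libraries were within a narrow range, and all 3 SOX17KO libraries were near the limit of detection.

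Gngt1 was at 11.8, 14.5 and 15.4 CPM in Control, and SOX17KO replicates 1, 2 and 3 had 0.305, 0 and 0.388 CPM. Its counts were 325, 303.3 and 404.02 in Control, and 8.24, 0 and 7.06 in SOX17KO. The ratio of the groups was 61.6, with a 95% counting interval of 37.2 to 110.5. About 2.03% of the 50-base stretches of its transcript also occurred in transcripts of other genes, and none of those of Gng11 did. Replicate 2 of SOX17KO had no count of either gene, and replicate 1 had counts of Gngt1 alone. In RNA from whole organoids, fewer cells with a transcript and less transcript per cell cannot be told apart.

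**Figure D1:**
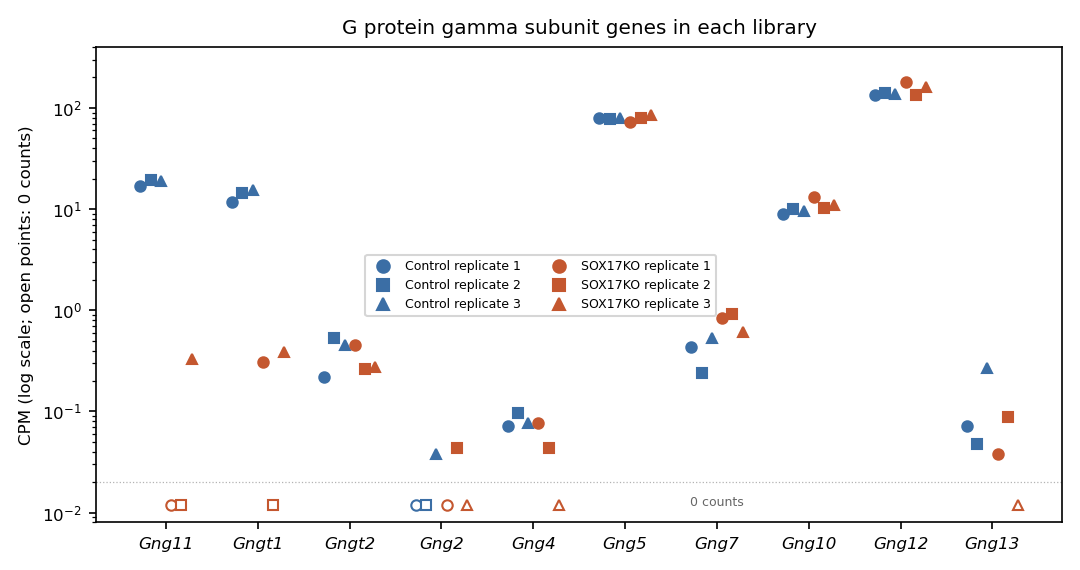
CPM (log scale) of the 10 gamma subunit genes in each of the 6 libraries; colour marks the group, shape marks the replicate, and open points at the bottom stand for 0 counts. Gng11 and Gngt1 lie between 11.8 and 19.4 CPM in Control and at or below 0.388 CPM in SOX17KO. Gng5 lies between 72.5 and 85.4 CPM and Gng12 between 133 and 179 CPM over all libraries.

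Among the other 8 members, 5 were abundant enough to test. None was called with edgeR, limma-voom or DESeq2, against 6.87%, 6.25% and 8.45% of all genes tested with each tool. At an unadjusted edgeR p below 0.05 there was 1, Gng7, which passed the low-count filter only with the SOX17KO libraries, where it was higher, so nothing is read from that count. Gng5, one of the broadly expressed gamma subunits, was at 78.6, 77.8 and 80.4 CPM in Control, against 72.5, 80.2 and 85.4 CPM in SOX17KO. The groups overlapped, and its log2 fold change was 0.01 ± 0.08 (SE), with a 95% interval of -0.19 to 0.21 (edgeR adjusted p = 0.977). An increase above 1.15-fold lies outside that interval. About 5.70% of the 50-base stretches of the longer Gng5 transcript occurred in transcripts of other genes, among them the pseudogene Gng5-ps, so reads could be split between them.

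Gng12, the member with the most counts, was at 133, 139 and 138 CPM in Control, and SOX17KO replicates 1, 2 and 3 had 179, 135 and 161 CPM. Replicate 2 lay inside the Control range, and the others lay above it. The log2 fold change was 0.21 ± 0.11, with an interval of -0.05 to 0.47 (edgeR adjusted p = 0.356), which reaches a fold change of 1.39. Without SOX17KO replicate 1, the library that stood apart, the value was 0.11 (edgeR adjusted p = 0.392). Like Gng11 and Gngt1, Gng12 is on chromosome 6, where 75.3% of the 587 tested genes had a negative log2 fold change and the median was -0.24. The median was -0.18 over the 20 tested genes nearest to Gng12, of which 15 had a lower log2 fold change than Gng12 itself.

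Gng10, another broadly expressed member, was at 8.87, 10.05 and 9.51 CPM for the Control replicates and 13.1, 10.4 and 11.1 CPM for the SOX17KO replicates. Its groups did not overlap, as was so for 28.2% of tested genes. The log2 fold change was 0.28 ± 0.13, with an interval of -0.04 to 0.60 (edgeR adjusted p = 0.309). Without SOX17KO replicate 1 it was 0.18 (edgeR adjusted p = 0.345). Of the 50-base stretches of the Gng10 transcript, 78.9% also occurred in a transcript of the overlapping model Gm20503, and how the authors' annotation treated that model is not given in the sources used here.

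Gng7, best known from the striatum, had few reads: 12, 5 and 14 counts in Control and 22, 21 and 11 in SOX17KO. These correspond to 0.434, 0.239 and 0.533 CPM in Control and 0.840, 0.922 and 0.610 CPM in SOX17KO, with groups that did not overlap. Its log2 fold change of 0.95 ± 0.37 had an interval of 0.08 to 1.83 (edgeR adjusted p = 0.206). It passed the low-count filter, which asks for 3 libraries above 0.415 CPM, with 2 Control and 3 SOX17KO libraries, so its presence among the tested genes depended on SOX17KO. The group means were 0.402 ± 0.149 CPM for Control and 0.790 ± 0.162 CPM for SOX17KO (SD, n = 3), beside a combined 32.3 ± 3.25 CPM of Gng11 and Gngt1 in Control.

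Gngt2, the cone gamma subunit and the closest relative of the pair, stayed near the detection limit. It was at 0.217, 0.526 and 0.457 CPM across Control, while SOX17KO had 0.458, 0.263 and 0.277 CPM, with overlapping groups. Its log2 fold change was -0.22 ± 0.47, with an interval of -1.31 to 0.88 (edgeR adjusted p = 0.869). With 3 of the 6 libraries above the filter, its precision was low. Gng13, a subunit of taste and tuft cells, had 2, 1 and 7 counts in Control and 1, 2 and 0 in SOX17KO. Gng4 had 2 counts in each Control library and 2, 1 and 0 in SOX17KO. Gng2, abundant in leukocytes and brain, had 1 count in each group. Of the gamma subunit genes outside the member list, Gng3 had at most 12.53 counts in a group and Gng8 had 1 count in all, while Gng14 was not analysed here.

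The 3 members with a farnesyl group, a grouping made after the values were seen, went from a sum of 28.7, 34.4 and 34.8 CPM in Control to one of 0.763, 0.263 and 0.998 CPM in SOX17KO. Gngt2 accounted for 0.458, 0.263 and 0.277 CPM of the SOX17KO values. Since Gng11 and Gngt1 held 32.3 of the mean 32.7 CPM in Control, this drop restates the values that chose those 2 genes, and Gngt2, the other member of the class, was not called.

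Summed reads of the family could not fall as far through Gng11 and Gngt1 alone. Gng11 and Gngt1 together held 11.4%, 13.0% and 13.0% of the family's CPM in Control replicates 1, 2 and 3, but 0.115%, 0% and 0.278% in SOX17KO. The other 8 genes summed to 221, 228 and 229 CPM in Control and to 266, 227 and 258 CPM in SOX17KO, a difference of 24.1 CPM between means of 226 ± 4.22 and 250.3 ± 20.7 (SD, n = 3). SOX17KO replicate 2 again lay within the Control range. Without SOX17KO replicate 1 the difference was 15.9 CPM. Gng12 made up 21.5 of the 24.1 CPM. All 10 together summed to 249.9, 262 and 264 CPM in Control and to 266, 227 and 259 CPM in SOX17KO, with overlapping groups. No test was run on these sums, since the members were chosen with results known.

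**Figure D2:**
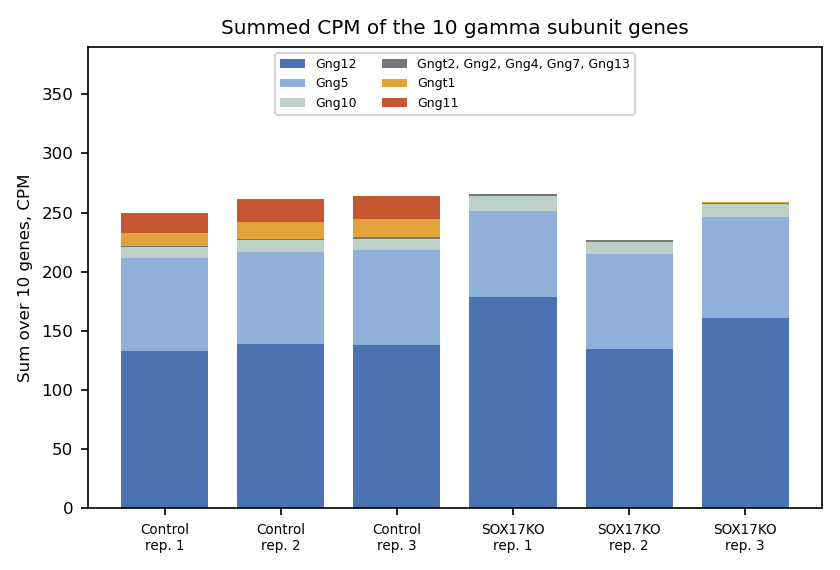
Summed CPM of the 10 gamma subunit genes in each library, stacked by gene. Gng11 and Gngt1 form the top of each Control bar and are not visible in SOX17KO. Gng12 is the tallest segment in every library, at 133 to 139 CPM in Control and 135 to 179 CPM in SOX17KO.

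Reads per gene depend on transcript length, so levels were compared between genes as CPM per kilobase of the principal GENCODE M21 transcript. In Control, Gng5 was at 32.6 ± 0.549 and Gng12 at 32.2 ± 0.758 CPM per kilobase, which did not differ beyond their spread. They were followed by Gng11 at 20.01 ± 1.56, Gngt1 at 11.7 ± 1.59 and Gng10 at 7.95 ± 0.496 CPM per kilobase. The remaining members were at or below 0.252. These levels depend on the transcript taken: with the shortest GENCODE basic transcript Gng12 was at 201 and Gng5 at 133 CPM per kilobase in Control, while Gng11, Gngt1 and Gng10 have 1 basic transcript each and kept their values. In SOX17KO the order was Gng12 at 37.2 ± 5.20, Gng5 at 32.8 ± 2.68 and Gng10 at 9.65 ± 1.17 CPM per kilobase, with Gng11 and Gngt1 at 0.121 ± 0.209 and 0.195 ± 0.173. By this measure the 10 genes summed to 99.8, 107 and 108 in Control and to 83.9, 74.2 and 83.55 in SOX17KO. That direction too depends on the transcript: with the shortest transcript of each gene in the GENCODE basic set the sums were 365, 379 and 382.5 in Control and 398, 344 and 392 CPM per kilobase in SOX17KO.

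Of the 19 genes with a row in the table within 10 places of Gng11 and Gngt1, 8 were tested. None was called with edgeR or limma-voom, where 6.87% and 6.25% of all tested genes were, or with DESeq2, where 8.45% of genes with any count were. An unadjusted edgeR p below 0.05 was reached by 3 of the 8, against 20.3% of all tested genes. A count of 0 among 8 genes is near those shares. Their log2 fold changes ran from -1.02 to 0.50 with a median of 0.00, 4 negative and 4 positive. Bet1, the next gene after Gng11 and a vesicle transport protein gene, was at 37.5, 45.8 and 40.2 CPM in Control, against 32.4, 27.5 and 38.2 CPM in SOX17KO. Its log2 fold change was -0.33 ± 0.14 (edgeR adjusted p = 0.244). Tfpi2, the next gene before Gngt1, had 1 count in all 6 libraries.

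Samd9l, an antiviral gene, was at 30.1, 33.4 and 27.5 CPM for the Control replicates and 28.2, 17.8 and 23.1 CPM for the SOX17KO replicates. Casd1, a sialic acid acetyltransferase gene, was at 8.90, 8.47 and 8.10 CPM across Control, while SOX17KO had 16.1, 9.96 and 10.03 CPM. Pon2 and Pon3, of the paraoxonase family, had log2 fold changes of 0.23 and 0.39, and Ppp1r9a and Ccdc132 of 0.02 and -0.03, with signs that turned when single libraries were left out. Hepacam2 had the lowest value, -1.02, and its SOX17KO libraries differed widely, at 1.11, 0.0878 and 0.499 CPM beside a Control range of 0.951 to 1.48 CPM. When SOX17KO replicate 1 was left out and 2708 genes were called in all, Samd9l, Hepacam2 and Ccdc132 were called lower (log2 fold changes of -0.58, -2.08 and -0.26, edgeR adjusted p = 0.0104, 0.0227 and 0.0433). The 11 untested neighbours had at most 16 counts in a group.

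**Figure D3:**
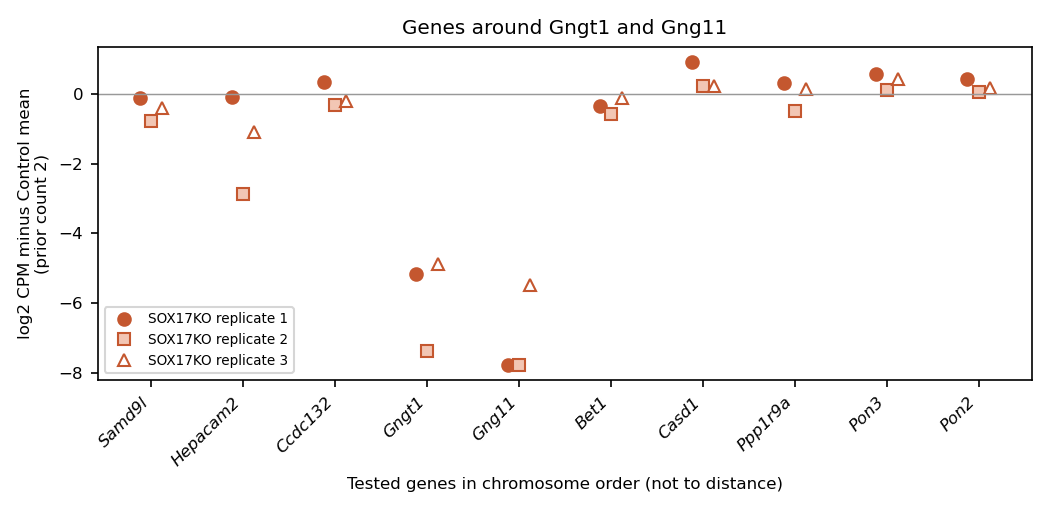
Difference of log2 CPM from the Control mean (prior count 2) in each SOX17KO library for Gngt1, Gng11 and the 8 tested genes within 10 places of them, in chromosome order. Gngt1 and Gng11 lie between -4.88 and -7.77, and the neighbours lie between -2.86 and 0.92.

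Genes were ranked by the likeness of their pattern over the 6 libraries to that of Gng11, as the root mean square difference between 2 genes in log2 CPM relative to the Control mean. Gngt1 had the lowest value of 12136 tested genes, 1.11, which restates the fall by which both genes were chosen. Next came Atp6v1c2, a subunit of the vacuolar proton pump, at 2.26. It averaged 1.97 ± 0.570 CPM in Control and 0.0439 ± 0.0394 CPM in SOX17KO. Csf3, the gene of granulocyte colony-stimulating factor, followed at 2.37, with 3.405 ± 0.178 CPM in Control and 0.210 ± 0.158 CPM in SOX17KO. Gm14434 (2.61) and 2310043J07Rik (2.63) came after them. Gm14434 was at 8.26 CPM in SOX17KO replicate 3 and near 0 in the other two, and was not called.

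The partners and effectors of the gamma subunits were described from 78 listed genes, of which 76 were in the table and 39 were tested. Of these 39, 3 were called higher and 3 lower with edgeR, which is 15.4% against 6.87% of all tested genes. Among the called genes Gnb2, Gna12, Gnai1 and Rgs12 are on chromosome 5, where 132 of 787 tested genes were called lower and 15 higher. The surroundings of these 4 genes differed, and those of Gnb2 and Gna12 are given below. Of the 20 tested genes nearest to Gnai1, 16 were positive and 0 called lower, with a median log2 fold change of 0.25. Of the 20 nearest to Rgs12, 10 were negative and 10 positive, with 0 called and a median of 0.015. The part of chromosome position in these calls was not tested. The median log2 fold change of the 39 was 0.03, against 0.01 over all tested genes. Without any one Control library 2 of the 6 calls were left, with 192 to 202 calls over all genes. Without SOX17KO replicate 1 there were 12, with 2708 calls over all genes.

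Among beta subunits, Gnb2 fell and Gnb1 was not called. Gnb2 was at 843, 839 and 833 CPM in Control, against 325, 403 and 347 CPM in SOX17KO, and its log2 fold change was -1.23 ± 0.10 (edgeR adjusted p = 0.00123). In Control it had the most reads of any beta subunit gene. The 20 tested genes nearest to Gnb2 on chromosome 5 had a median log2 fold change of -1.20, and 19 of them were negative and 13 called lower. Gnb1 was at 624, 619 and 642 CPM for the Control replicates and 553, 700 and 669 CPM for the SOX17KO replicates (log2 fold change 0.03, edgeR adjusted p = 0.933). Its 95% interval ran from -0.22 to 0.28, and its sign turned without SOX17KO replicate 2 or 3.

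Gnb5, the atypical beta subunit that pairs with RGS proteins of the R7 group, was at 8.29, 7.75 and 8.45 CPM across Control, while SOX17KO had 11.1, 10.8 and 11.4 CPM. Its groups did not overlap, but it was not called (log2 fold change 0.44 ± 0.11, edgeR adjusted p = 0.0704). DESeq2 called it (adjusted p = 0.0466), as did edgeR without SOX17KO replicate 1 (adjusted p = 0.0277). Gnb3 and Gnb4 had at most 3 counts in a group. The 5 beta subunit genes summed to 1466 to 1483 CPM in Control and to 889, 1114 and 1027 CPM in SOX17KO.

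Of the 16 alpha subunit genes 12 were tested, of which 2 rose and 1 fell, where 3.67% and 3.2% of all tested genes did. Gnai1, which inhibits adenylyl cyclase, rose from 44.9, 49.0 and 49.6 CPM to 90.1, 69.5 and 93.6 CPM (log2 fold change 0.82 ± 0.13, edgeR adjusted p = 0.012). Gna14, of the Gq family that activates phospholipase C beta, rose from 82.3, 74.6 and 75.0 CPM to 112, 148 and 150 CPM (log2 fold change 0.82 ± 0.13, edgeR adjusted p = 0.012). Both lost the call when 1 Control library was left out, whichever it was (edgeR adjusted p up to 0.0861 and 0.0854). Gna12, an alpha subunit that acts on guanine nucleotide exchange factors, fell from 50.4, 47.8 and 47.4 CPM to 19.6, 22.8 and 22.3 CPM (log2 fold change -1.17 ± 0.09, edgeR adjusted p = 0.0011). Of the 20 tested genes nearest to Gna12 on chromosome 5, 19 were negative and 9 called lower, with a median of -0.55, and none was below Gna12. Gnas, the most abundant alpha subunit gene by reads and the activator of adenylyl cyclase, was at 702, 672 and 662 CPM in Control, against 717, 765 and 754 CPM in SOX17KO (edgeR adjusted p = 0.396).

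**Figure D4:**
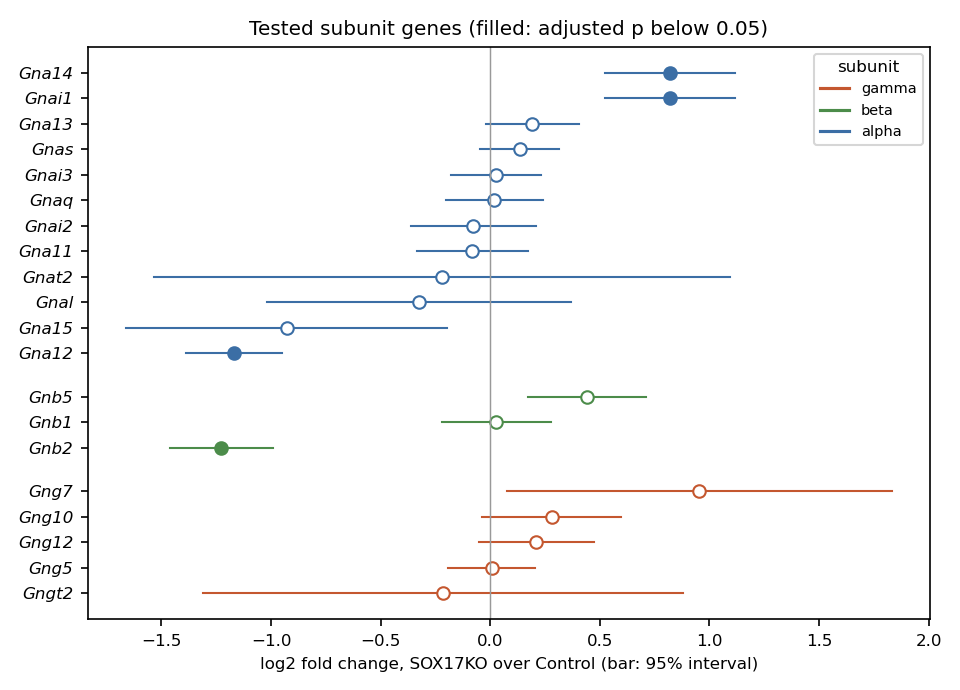
Log2 fold change of SOX17KO over Control with its 95% interval for the tested gamma subunit genes other than Gng11 and Gngt1 and for the tested beta and alpha subunit genes; filled points had an edgeR adjusted p below 0.05. All 5 gamma points are open, while Gnb2 and Gna12 are filled at -1.23 and -1.17 and Gnai1 and Gna14 at 0.82.

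Of 24 genes listed as effectors by gene family, 9 were tested and 1 was called. Over all tested genes the share called was 6.87%, so this count is near that share. Whether the dimer acts on the product of each listed gene was not tested. Adcy9, an adenylyl cyclase, rose from 0.760, 0.909 and 0.418 CPM to 2.67, 2.72 and 2.99 CPM (log2 fold change 2.01 ± 0.31, edgeR adjusted p = 0.0122). It lost the call when 1 Control library was left out, whichever it was (edgeR adjusted p up to 0.0821). Plcb3, the most abundant effector on the list, was at 189, 172 and 170 CPM for the Control replicates and 180, 199.7 and 168 CPM for the SOX17KO replicates (edgeR adjusted p = 0.87). The potassium channel genes Kcnj3, Kcnj5, Kcnj6 and Kcnj9 were at or below 0.0957 CPM in every library.

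The machinery that assembles and lipidates G protein subunits was measured in full for prenylation. Of the 5 prenylation genes, 0 were called with edgeR or had an unadjusted p below 0.05. Over all tested genes these shares were 6.87% and 20.3%, so a count of 0 among 5 is near the background. Fntb, the beta chain of farnesyltransferase, was at 29.2, 30.0 and 24.9 CPM across Control, while SOX17KO had 26.3, 27.96 and 29.3 CPM. Pggt1b, its counterpart in the enzyme that attaches the longer lipid, was at 27.3, 30.7 and 30.2 CPM in Control, against 35.8, 30.7 and 30.6 CPM in SOX17KO. The log2 fold changes were -0.01 and 0.14, with 95% intervals of -0.26 to 0.24 and -0.10 to 0.38. Icmt, which methylates the prenylated end, was the most abundant of the list at 76.4 to 82.7 CPM. Of 4 assembly chaperone genes 3 were tested and 0 were called with edgeR (0 at an unadjusted p below 0.05), also near those shares. Ric8, the most abundant over all 6 libraries, was at 62.7 to 85.1 CPM, and Pdcl, which had the higher mean in SOX17KO, was at 63.7 to 87.2 CPM.

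Of 21 RGS genes, which speed up GTP hydrolysis by the alpha subunit, 7 were tested and 1 was called, against 6.87% of all tested genes. Rgs12 fell from 13.7, 13.4 and 12.6 CPM to 6.60, 6.15 and 9.53 CPM (log2 fold change -0.84 ± 0.18, edgeR adjusted p = 0.0415). Leaving out 1 Control library, whichever it was, or SOX17KO replicate 2 ended the call (edgeR adjusted p up to 0.178). Rgs3, the most abundant, was at 60.9 to 79.8 CPM over all libraries.

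Markers of other cell types were summed by list. The 8 photoreceptor genes summed to 0.326 to 0.723 CPM in Control and 0.527 to 0.665 CPM in SOX17KO, with Pde6b and Arr3 at 0 counts in every library, and most of the rest was Crx. The 7 leukocyte genes summed to 0.796 to 1.26 and 0.746 to 1.03 CPM, with Cd3e and Cd79a at 0 counts and Ptprc at no more than 0.554 CPM. Laptm5, the highest of that list in Control, averaged 0.557 CPM there and 0.217 CPM in SOX17KO. For Ptprc the means were 0.353 and 0.449 CPM, and neither gene was called. The 5 endothelial genes were at 0.144 to 0.304 and 0.0878 to 0.878 CPM, with Emcn at 0 counts and Tek at up to 0.840 CPM in SOX17KO replicate 1. The 6 mesenchymal genes were at 0.0724 to 0.144 and 0.277 to 0.763 CPM, with Col3a1 at 0 counts and Acta2 highest, so that each SOX17KO library was above the Control range; the part of this in the results was not tested. The 4 neuronal genes were at 1.91 to 2.53 and 1.22 to 2.605 CPM, nearly all from Tubb3, with Elavl4 at 0 counts. Of the 6 tuft cell genes Avil, also expressed elsewhere, held most of the reads, at 378 to 438 CPM in Control and 88.1, 569 and 487 CPM in SOX17KO. Of the other 5, Pou2f3, which defines tuft cells, had 1 count in Control and 0 in SOX17KO, and Il25 had 0 counts in every library. Dclk1 had 6 counts in Control and 64 in SOX17KO, with 2.29 CPM in SOX17KO replicate 1 and at most 0.166 CPM elsewhere. Gfi1b was at 0.458 CPM in that library and at most 0.111 CPM elsewhere, and Trpm5 was at 0.0478 to 0.289 CPM over all libraries. The part of these levels in the results was not tested.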

How the data were processed

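Values were deposited as RSEM expected counts, which need not be whole, in 1 table for all 6 libraries. Bowtie, RSEM and the mouse build mm9 are named in the submitters' processing notes, with no versions; the sources used here give neither annotation nor strand setting. Libraries were directional and made after poly(A) selection, per the labels' protocols. Counts were rounded and tested with edgeR 4.0.16 in R 4.3.3 (quasi-likelihood test, TMM, filterByExpr with minimum count 10 and total 15, 1 genotype coefficient, Benjamini-Hochberg adjustment over 12137 genes). CPM used TMM-adjusted library sizes, and log2 CPM a prior count of 2. The procedure was tested on simulated data, where it recovered 20%, 66%, 94% and 100% of 1.5-, 2-, 4- and 8-fold changes (50 genes each). A true change of 2-fold or less could therefore go uncalled. Recovery at counts as low as those of Gngt2 (5 to 12 per library) and Gng7 (5 to 22 per library) was not tested separately, so these shares are not applied to them. Alternatives were DESeq2 1.42.0, limma-voom (limma 3.58.1), other scalings and filters, unrounded values, a replicate block and leaving out each library.

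The members and lists were chosen with earlier results of these data known. Named were all members, called list genes, the most abundant gene of each list, tested neighbours of Gng11 and Gngt1 and the 5 genes most like Gng11; any other gene was picked with its values in view, chosen after seeing the data. RefSeq (GRCm38.p6) gave the gene order and placed 99.1% of tested genes; since mm9 is another build, no coordinates are printed. Coding sequences and transcript lengths came from GENCODE M21 (longest APPRIS principal transcript), and identities from global alignments (match 2, mismatch -1, gap opening -5, extension -1). Figures used matplotlib 3.10.9.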

Additional observations from a re-analysis of the deposited data

How the results depend on the processing

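All 5 tested gamma subunit genes other than Gng11 and Gngt1 stayed uncalled under every alternative that tested them, with lowest adjusted p of 0.56 for Gngt2, 0.554 for Gng5, 0.17 for Gng7, 0.238 for Gng10 and 0.104 for Gng12. Gngt2 and Gng7 were not tested at 1 CPM or more in 3 libraries. The log2 fold change of Gng5 turned to -0.011 with no low-count filter and to -0.005, -0.001 and -0.048 without Control replicate 2, SOX17KO replicate 2 and SOX17KO replicate 3, the highest with 1 library left out being 0.066. With 1 library left out Gngt2 ranged from -0.533 to 0.006, the latter without Control replicate 2. Gnb1 was at -0.042 and -0.004 and Ccdc132 at 0.092 and 0.05 without SOX17KO replicates 2 and 3, and at 0.122 and -0.258 without SOX17KO replicate 1. Ppp1r9a was at -0.006 with limma-voom, -0.004 with the replicate block, and -0.09, -0.156 and -0.037 without Control replicate 3, SOX17KO replicate 1 and SOX17KO replicate 3, against 0.232 without SOX17KO replicate 2. The mean difference in summed CPM of the 8 other members, 24.1, ranged from 15.9 to 35.9 with 1 library left out and was 27.5 with library totals only. The difference in summed CPM per kilobase was -24.55 with principal transcripts and 2.64 with the shortest ones, an alternative chosen after seeing the data.

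DESeq2 called 1439 genes in place of 834, and leaving out 1 library gave 192 to 2708 calls; for the pathway lists it gave 2 to 12 calls and for the 8 tested neighbours 0 to 3. Replicate numbers only name the libraries: deviations of same-numbered libraries correlated at -0.186, -0.0467 and -0.181, and no Control library correlated best with its own number. With the replicate block there were 326 calls, of which 2 in the pathway lists, Gnb2 and Gna12, and Gnai1, Gna14, Adcy9 and Rgs12 had adjusted p of 0.0509, 0.0601, 0.0553 and 0.116. The cause of these differences was not tested. Gng2, Gng4 and Gng8 had 0 to 2 counts in each library, and no change in them was detectable at this depth.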
